A study of Mus musculus with 16 samples.

Results

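On day 3 of reprogramming, 1 RNA library of mouse embryonic fibroblasts (MEF) that had received c-JunDN together with Klf4, Sox2 and c-Myc (KSM) was set against 1 library that had received DR together with the same KSM factors. The 2 libraries are 2 of the 16 samples of the series, and each is the only one of its kind. Both come from OG2 transgenic MEF at passage 2, and per the labels both carry the KSM factors, so c-JunDN in place of DR is the labelled difference. The strain label gives a mixed 129SVJ, C57B6 and CBA background, with a CBA share written differently for each sample. The labels do not say what DR is, how many cultures were pooled or what share of the cells took up the factors. Also used were KSM with Oct4 and KSM with Jdp2 on day 3, passage 2 MEF with c-JunDN and with DR without KSM, and untreated MEF and embryonic stem cells (ESC). The stated question of the study is why c-Jun blocks reprogramming whereas c-JunDN and Jdp2 can take the place of Oct4. The comparison covers all 20325 genes of the table, of which 10715 reached 5 CPM, counts scaled to a common library size, in 1 of the 2 libraries and are called measured.

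KSM is the factor cocktail for making induced pluripotent stem cells with Oct4 left out. AP-1 is a family of dimeric transcription factors made of Jun, Fos and related proteins, which bind palindromic sites near genes of growth, matrix turnover and epidermal differentiation. c-JunDN is a dominant-negative form of c-Jun, a form that interferes with the normal protein. During reprogramming fibroblasts are known to lose mesenchymal genes and to gain epithelial ones before pluripotency genes are switched on.

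The KSM library with c-JunDN held 2976932 expected counts and that with DR held 2556709, so 3 counts correspond to 0.943 CPM with c-JunDN and 1.1 CPM with DR. With 1 library a side, a difference has no replicate check and no test across cultures can be made. Each fold is given with a 95% counting interval, which covers counting error only. The KSM libraries differed widely in a few abundant genes, with DR the highest. Lars2, the mitochondrial leucyl-tRNA synthetase gene, was at 237 CPM with c-JunDN, 1421 CPM with Oct4, 845 CPM with Jdp2 and 10895 CPM with DR, and MEF without KSM had 192 CPM with c-JunDN and 304 CPM with DR. Mtrnr2l, by name a relative of mitochondrial ribosomal RNA, was high in the same library, with 23.3 CPM with c-JunDN, 47.0 CPM with Oct4, 26.0 CPM with Jdp2 and 124 CPM with DR. Ndufa4, a respiratory chain gene, was at 184 CPM with c-JunDN, 217 CPM with Oct4, 198 CPM with Jdp2 and 424 CPM with DR. The c-JunDN library was the lowest of the 4 in each of these genes, and the part of these levels in other differences was not tested.

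The introduced factors were checked first. Klf4 was at 828 CPM with c-JunDN and 809 CPM with DR. Sox2 was at 569 CPM with c-JunDN and 583 CPM with DR, and Myc at 888 CPM with c-JunDN and 850 CPM with DR. The transcript levels of the shared factors were thus close in both libraries. Jun was at 352 CPM with c-JunDN and 67.0 CPM with DR, 5.26-fold higher (4.49 to 6.18), and at 28.1 CPM with Oct4 and 86.8 CPM with Jdp2. Reads from the introduced c-JunDN and from the cell's own Jun cannot be told apart in this table. In MEF without KSM, Jun was at 3968 CPM with c-JunDN and 88.5 CPM with DR. Pou5f1, which encodes Oct4, was at 8.80 CPM with c-JunDN and 4.05 CPM with DR, against 1711 CPM in the library that received Oct4.

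Across the 10715 measured genes, 194 were higher with c-JunDN by 2-fold or more (1.81% of those measured), 174 were lower (1.62%) and 10347 were neither. Differences are log2 ratios of CPM plus 1, and their median was 0.05, with quartiles of -0.13 and 0.23. The larger differences were mostly on the lower side, where 34 genes passed 4-fold and 7 passed 8-fold, against 11 and 1 on the higher side. Of the 194 higher genes, 152 stayed under 20 CPM in the library where they were higher. Of the lower genes, 19 lay between 100 and 500 CPM there and 6 at 500 CPM or more, against 4 and 0 of the higher genes. Measured genes at 5 to 20 CPM in their higher library were called higher in 5.31% and lower in 3.14% of cases. At 20 to 100 CPM these shares were 0.687% and 1.07%, so lists of low genes hold more calls from their level alone. With a pseudocount of 5, which gives low genes less weight, 46 genes were higher and 95 lower. With DESeq2 size factors 147 were higher and 186 lower, so which side held more genes depended on the scaling. The counting interval excluded no change for 184 of the higher and 174 of the lower genes. A gene under 5 CPM in one of the libraries was measured through the other alone, so its direction was fixed by the minimum. This holds for 124 of the 194 higher genes and 77 of the 174 lower genes, whereas 70 higher and 97 lower genes reached 5 CPM in both libraries. Zscan18, just inside the minimum of 5 CPM, had 16 counts with c-JunDN and 9 with DR, and Sh3d20, just outside it, had 6 and 13.

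**Figure D1:**
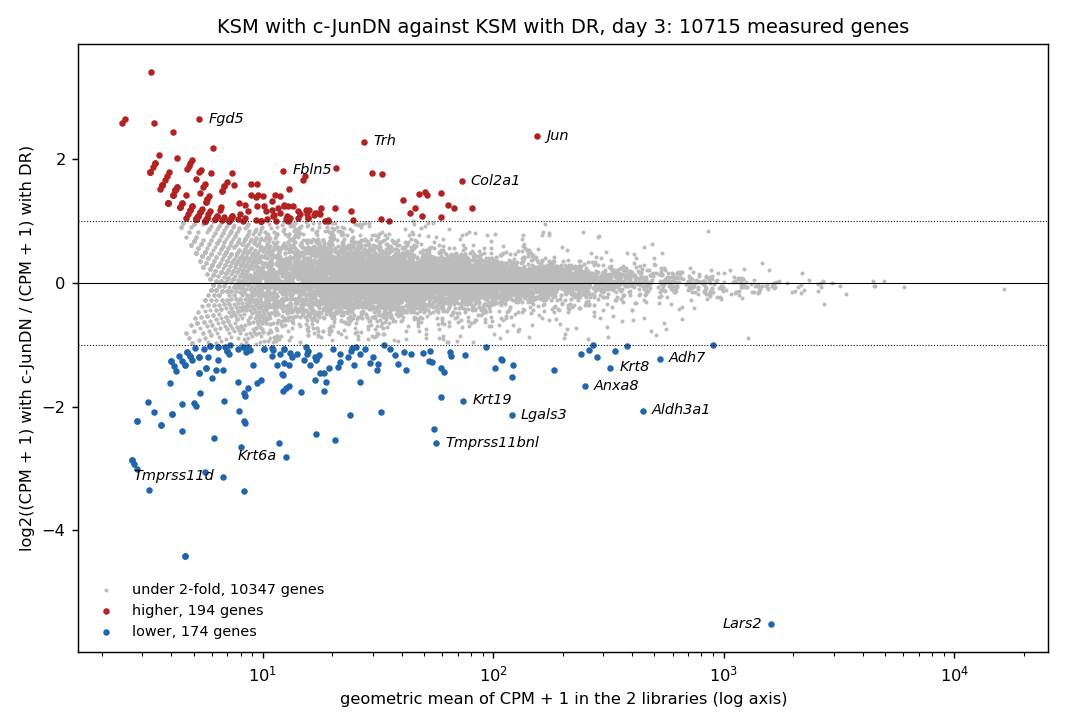
Each dot is 1 of 10715 measured genes, with the geometric mean of CPM plus 1 in the KSM libraries with c-JunDN and with DR on the log x axis and the log2 difference on the y axis; dotted lines mark 2-fold. The 194 higher genes (red) lie mostly at low levels, with Jun at 2.38 and Col2a1 at 1.65 among the exceptions, and the 174 lower genes (blue) include abundant ones such as Aldh3a1 at -2.06, with Lars2 alone at -5.52.

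The genes lower with c-JunDN included keratins and other genes of stratified and simple epithelia. Keratins are the intermediate filament proteins of epithelial cells. The table holds 50 keratin genes, grouped by name after their values had been seen, and 11 were measured. Of these, 10 were lower, none was higher and 1, Krt18, was neither, whereas 1.62% of all measured genes were lower. The median log2 difference was -1.75 against 0.05 over all measured genes. For 5 of the 11 only the DR library reached the minimum, so that these had to be lower, and 5 of the other 6 were lower too. Summed over all 50 keratin genes, the level was 297 CPM with c-JunDN, 79.3 CPM with Oct4, 658 CPM with Jdp2 and 828 CPM with DR. It was 20.1 CPM in MEF with c-JunDN and 29.5 CPM in MEF with DR. Fewer cells with keratin RNA and less keratin RNA per cell cannot be told apart in bulk libraries.

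Krt6a, a keratin of stressed and proliferating stratified epithelium, was at 3.77 CPM with c-JunDN and 32.4 CPM with DR, 8.59-fold lower (4.68 to 17.3). Its usual partner Krt16 was at 0.943 CPM with c-JunDN and 9.20 CPM with DR, on 3 and 25 counts, 9.76-fold lower (2.98 to 50.5). The basal-layer keratin Krt14 was at 5.97 CPM with c-JunDN and 21.7 CPM with DR, 3.64-fold lower (2.14 to 6.46). All 3 are epidermal keratins with few counts in the c-JunDN library, which makes their intervals wide. Krt13, the keratin of non-cornified mucosa, was at 5.66 CPM with c-JunDN and 21.4 CPM with DR, 3.78-fold lower (2.19 to 6.81). The oral keratin Krt76 was at 1.57 CPM with c-JunDN and 13.6 CPM with DR, and the corneal keratin Krt12 at 3.46 CPM with c-JunDN and 14.4 CPM with DR. Of the simple-epithelium keratins, Krt8 and Krt19 rest on far more counts. Krt8 was at 199 CPM with c-JunDN and 515 CPM with DR, 2.59-fold lower (2.36 to 2.85) on 632 and 1398 counts. Krt19 was at 37.4 CPM with c-JunDN and 142 CPM with DR, 3.81-fold lower (3.09 to 4.72). Krt18, the partner of Krt8, was at 18.5 CPM with c-JunDN and 18.0 CPM with DR, and so lay on neither side. Krt20 was at 9.11 CPM with c-JunDN and 24.3 CPM with DR, and Krt80 at 3.46 CPM with c-JunDN and 8.10 CPM with DR.

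Beside the keratins, several other genes known from squamous epithelia were lower. Tmprss11d, a serine protease of airway and upper digestive epithelium, was at 1.26 CPM with c-JunDN and 18.8 CPM with DR, 14.9-fold lower (5.49 to 56.9) on 4 and 51 counts. Its relative Tmprss11bnl was at 22.0 CPM with c-JunDN, 15.0 CPM with Oct4, 62.8 CPM with Jdp2 and 137 CPM with DR, 6.24-fold lower against DR (4.83 to 8.18). The secreted Slurp1, a keratinocyte protein of the Ly6 family, was at 2.20 CPM with c-JunDN and 19.1 CPM with DR, 8.70-fold lower (3.94 to 22.7). Tmprss11d and Slurp1 reached 5 CPM with DR alone and so had to be lower, whereas Tmprss11bnl reached it in both libraries. Of 46 genes of the cornified envelope, the cross-linked shell of skin cells, 8 were measured. Against 1.62% lower over all measured genes, 4 of the 8 were lower and none was higher. The 4 were Sbsn (-1.76), Krtdap (-1.99), Cnfn (-1.04) and Ppl (-1.19), of which Krtdap and Cnfn reached 5 CPM with DR alone and so had to be lower. Of the 8, 3 were measured in both libraries, and 2 of these, Sbsn and Ppl, were lower. The desmosome linker Dsp was at 266 CPM with c-JunDN and 538 CPM with DR, 2.03-fold lower (1.86 to 2.21). Of the genes of hemidesmosomes and laminin-332, which fix epithelial cells to the basement membrane, Itgb4 (76.4 CPM with c-JunDN, 192 CPM with DR) and Lama3 (6.28 CPM with c-JunDN, 19.5 CPM with DR) were lower and 5 of 7 measured were neither. Lamb3, another chain of the same laminin, was on the other side at 21.4 CPM with c-JunDN and 14.0 CPM with DR.

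The c-JunDN library was not low in all epithelial genes. Of 42 genes in the epithelial list 21 were measured, 2 were higher, 3 were lower and 16 were neither, with a median of 0.04. The lower ones were Krt8, Krt19 and Dsp. The higher ones were Cdh3, which encodes P-cadherin, at 12.6 CPM with c-JunDN and 2.94 CPM with DR, 4.27-fold (1.97 to 10.6), and the epithelial splicing factor Esrp2 at 22.9 CPM with c-JunDN and 9.57 CPM with DR, 2.40-fold (1.51 to 3.91). Cdh3 reached 5 CPM with c-JunDN alone and so had to be higher, whereas Esrp2 reached it in both libraries. Cdh1, which encodes E-cadherin, was at 20.4 CPM with c-JunDN, 37.6 CPM with Oct4, 50.3 CPM with Jdp2 and 30.2 CPM with DR, and Epcam at 10.1 CPM with c-JunDN and 13.3 CPM with DR. Jup, a plaque protein of desmosomes, was at 185 CPM with c-JunDN and 163 CPM with DR. As markers of keratinocytes, 12 genes summed to 50.3 CPM with c-JunDN and 139 CPM with DR. Their defining regulator Trp63 had 0 counts in both libraries, which allows up to 0.943 CPM with c-JunDN and 1.1 CPM with DR, and Krt5 was at 0.943 CPM with c-JunDN and 0.368 CPM with DR. Of these 12 markers 4 were measured and 3 were lower, Krt6a, Krt14 and Sfn, and 3 had 0 counts in each library. The part of these markers in the keratin differences was not tested.

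**Figure D2:**
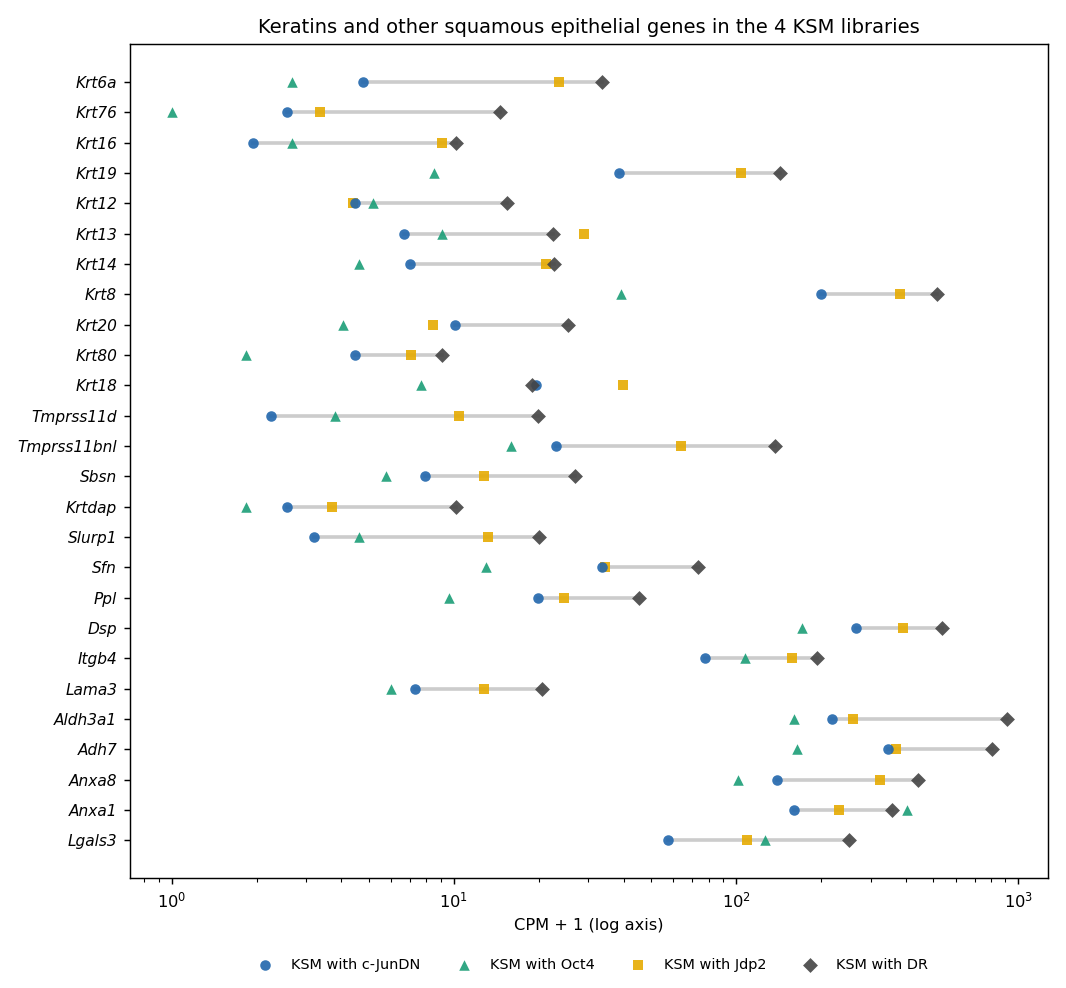
Levels of the 11 measured keratins and of other squamous epithelial genes in the 4 KSM libraries, as CPM plus 1 on a log axis, with c-JunDN as blue circles, Oct4 as green triangles, Jdp2 as yellow squares and DR as grey diamonds; a grey line joins c-JunDN and DR. The c-JunDN circle lies left of the DR diamond for every gene shown but Krt18, and the Oct4 triangle lies further left for most keratins, as for Krt8 at 38.1 CPM.

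The other KSM libraries differed in these genes, and they are given as levels because each comparison would use the same DR library. With Oct4, 8 of the 11 measured keratins were below their level with c-JunDN, among them Krt8 at 38.1 CPM, Krt19 at 7.51 CPM, Krt6a at 1.67 CPM and Krt14 at 3.62 CPM. The other 3 were above it, with Krt13 at 8.07 CPM, Krt12 at 4.17 CPM and Krt16 at 1.67 CPM. With Jdp2, 7 of the 11 lay between the c-JunDN and the DR libraries, among them Krt8 at 379 CPM, Krt19 at 103 CPM, Krt6a at 22.6 CPM and Krt14 at 20.3 CPM. Krt20 at 7.43 CPM and Krt12 at 3.38 CPM lay below the c-JunDN library, and Krt18 at 38.8 CPM above the DR library. Krt13 was higher with Jdp2 than in any other KSM library, at 28.0 CPM.

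The promoters were searched for the AP-1 letters TGANTCA, a pattern that reads the same on both strands, where N is any base. The count thus takes in TGAATCA and TGATTCA beside TGACTCA and TGAGTCA. Windows of 300 bases, from 250 before to 50 after each start, came from RefSeq (GRCm38.p6), and 140 of the lower, 136 of the higher and 8646 of all measured genes were matched to one. Of 180 windows of lower genes 25 held the letters (13.9%), against 17 of 188 windows of higher genes (9.04%), 537 of 11112 windows of all measured genes (4.83%) and 7.81% of all 32851 windows of the table. The letters TGACGTCA, another site known for dimers of Jun and ATF proteins, went the other way, in 0 of 180 windows of lower genes, 1.6% of higher and 3.13% of all measured genes. The letters CACGTG, which AP-1 is not known for, were in 5.56% of windows of lower genes, 7.45% of higher and 10.4% of all measured genes. The GC content of the windows differed as well, with medians of 58.3% for lower, 58.7% for higher and 61.3% for all measured genes, and its part in these shares was not tested. In all, 22 lower and 16 higher genes held the letters. The windows shown are a hand-picked part of these, from epithelial genes and classical AP-1 targets, with the letters in capitals. Of the 10 lower keratins 6 were searched, without Krt6a, Krt16, Krt19 and Krt80, and 1 of the 6, Krt13, held the letters. The windows of Krt8, Krt12, Krt14, Krt20 and Krt76 held none. A match does not show binding, and no match says only that these letters are not in the window. Krt13 is shown by the downstream of its 2 windows, at chr11:100120528-100120827 on the minus strand, with starts of the letters at -183 and -34 from the gene start. Sbsn is at chr7:30751221-30751520 on the plus strand (-119 and -6), Tmprss11d at chr5:86373338-86373637 on the minus strand (-39) and Adh7 at chr3:138217523-138217822 on the plus strand (-25). Plaur, a lower gene, is at chr7:24462233-24462532 on the plus strand (-69), and Mmp10, a higher gene, at chr9:7502092-7502391 on the plus strand (-63).
Krt13: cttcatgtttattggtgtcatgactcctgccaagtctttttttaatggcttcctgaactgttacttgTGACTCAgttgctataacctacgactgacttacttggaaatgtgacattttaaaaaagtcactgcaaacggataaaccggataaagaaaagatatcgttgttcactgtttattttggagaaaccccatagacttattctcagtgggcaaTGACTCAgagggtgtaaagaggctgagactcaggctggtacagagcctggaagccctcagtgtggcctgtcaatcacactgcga
Sbsn: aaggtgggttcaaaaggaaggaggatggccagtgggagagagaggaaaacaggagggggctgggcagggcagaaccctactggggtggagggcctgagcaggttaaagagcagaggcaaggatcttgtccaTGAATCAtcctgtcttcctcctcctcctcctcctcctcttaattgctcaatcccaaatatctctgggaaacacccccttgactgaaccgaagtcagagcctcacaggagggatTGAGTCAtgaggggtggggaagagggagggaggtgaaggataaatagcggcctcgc
Tmprss11d: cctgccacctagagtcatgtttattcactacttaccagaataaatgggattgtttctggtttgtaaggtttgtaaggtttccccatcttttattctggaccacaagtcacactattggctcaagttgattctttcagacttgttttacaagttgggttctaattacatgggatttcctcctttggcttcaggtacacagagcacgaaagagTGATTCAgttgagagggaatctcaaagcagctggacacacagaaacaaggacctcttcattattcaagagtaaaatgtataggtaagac
Adh7: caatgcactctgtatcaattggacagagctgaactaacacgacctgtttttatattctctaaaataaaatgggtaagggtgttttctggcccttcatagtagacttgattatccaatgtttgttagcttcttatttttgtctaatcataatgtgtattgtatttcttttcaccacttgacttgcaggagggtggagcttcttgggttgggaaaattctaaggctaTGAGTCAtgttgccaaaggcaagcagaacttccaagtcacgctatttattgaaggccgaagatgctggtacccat
Plaur: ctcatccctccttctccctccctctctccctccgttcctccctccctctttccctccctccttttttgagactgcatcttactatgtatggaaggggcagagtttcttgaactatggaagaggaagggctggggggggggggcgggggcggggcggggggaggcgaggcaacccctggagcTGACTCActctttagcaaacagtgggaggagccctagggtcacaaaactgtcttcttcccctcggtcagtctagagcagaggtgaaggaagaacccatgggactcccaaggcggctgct
Mmp10: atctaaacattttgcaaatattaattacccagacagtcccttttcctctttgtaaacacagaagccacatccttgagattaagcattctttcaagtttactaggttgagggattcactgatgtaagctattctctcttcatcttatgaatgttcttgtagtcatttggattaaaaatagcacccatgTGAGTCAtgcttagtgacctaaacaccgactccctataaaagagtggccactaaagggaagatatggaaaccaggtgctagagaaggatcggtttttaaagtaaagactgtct

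Most genes of the AP-1 family were under 2-fold, as were 10347 of all 10715 measured genes. Of 19 genes of the AP-1 family 10 were measured, 1 was higher, Jun, and none was lower, with a median of -0.20. The partners Jund (49.3 CPM with c-JunDN, 80.6 CPM with DR), Junb (32.7 CPM with c-JunDN, 45.3 CPM with DR) and Fosl1 (-0.38 on the log2 scale) were below DR by under 2-fold. Fosl2, Atf2, Atf7, Maff, Mafg and Mafk lay between -0.32 and 0.07. Of 30 proteases and cytokines linked to AP-1, 19 were measured, 2 were higher, 1 was lower and 16 were neither, with a median of 0.36. The interleukin-33 receptor Il1rl1 was at 25.5 CPM with c-JunDN and 7.36 CPM with DR, 3.46-fold higher (2.10 to 5.96). The stromelysin Mmp10 was at 12.9 CPM with c-JunDN and 5.89 CPM with DR, 2.19-fold higher (1.20 to 4.18). The urokinase receptor Plaur was at 22.6 CPM with c-JunDN and 46.4 CPM with DR, 2.05-fold lower (1.52 to 2.78). Genes of the list thus stood on both sides, with the prostaglandin synthase Ptgs2 at 44.0 CPM with c-JunDN and 86.1 CPM with DR, and the protease Plau at 55.6 CPM with c-JunDN and 32.0 CPM with DR. Of 13 measured immediate early genes and 15 measured genes of feedback on ERK signalling, none passed 2-fold. With 1.81% of all measured genes higher and 1.62% lower, few or none would be called in lists of this size.

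Enzymes of aldehyde and alcohol oxidation were among the most abundant lower genes. Aldh3a1, an aldehyde dehydrogenase of cornea and stomach, was at 217 CPM with c-JunDN, 159 CPM with Oct4, 258 CPM with Jdp2 and 909 CPM with DR, 4.18-fold lower against DR (3.84 to 4.56). Adh7, the stomach alcohol dehydrogenase, was at 344 CPM with c-JunDN, 163 CPM with Oct4, 367 CPM with Jdp2 and 804 CPM with DR, 2.34-fold lower (2.17 to 2.51). In both genes DR was the highest of the 4 libraries. Of 18 measured genes of these families 2 were lower and 2 were higher, Adh1 (8.17 CPM with c-JunDN, 1.47 CPM with DR) and Aldh1a3 (6.91 CPM with c-JunDN, 2.94 CPM with DR). Both higher genes reached 5 CPM with c-JunDN alone and so had to be higher. The glutathione transferase Gsto1 was at 632 CPM with c-JunDN and 1269 CPM with DR, 2.01-fold lower (1.90 to 2.12). Gpx2, a glutathione peroxidase of digestive epithelium, was on the other side, at 77.6 CPM with c-JunDN and 28.0 CPM with DR, 2.77-fold higher (2.14 to 3.64).

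Among membrane-binding and cell-surface proteins, Lgals3, which encodes galectin-3, was at 56.2 CPM with c-JunDN and 251 CPM with DR, 4.47-fold lower (3.79 to 5.30). In the other KSM libraries Lgals3 was at 126 CPM with Oct4 and 108 CPM with Jdp2. The calcium-dependent phospholipid binder Anxa8 was at 139 CPM with c-JunDN and 442 CPM with DR, 3.19-fold lower (2.86 to 3.57), and Anxa1 at 160 CPM with c-JunDN and 356 CPM with DR, 2.22-fold lower (1.99 to 2.48). Of 9 measured annexins these 2 were lower and 7 were neither, among them Anxa2 (-0.89) and Anxa6 (0.08). All 7 measured S100 genes lay between -0.95 and -0.15, none of them past 2-fold. Ly6a, which encodes Sca-1, was at 33.9 CPM with c-JunDN and 83.6 CPM with DR, 2.46-fold lower (1.95 to 3.13), and Ly6c1 at 3.46 CPM with c-JunDN and 14.7 CPM with DR. Ly6c1 reached 5 CPM with DR alone and so had to be lower. The integrin ligand Npnt was at 14.8 CPM with c-JunDN and 66.3 CPM with DR, 4.49-fold lower (3.24 to 6.33). Other leading lower genes were Blnk, a B-cell adaptor gene, Fbp2, a gluconeogenic phosphatase gene, and Igfbp6, a binder of insulin-like growth factors. Blnk was at 7.54 CPM with c-JunDN, 6.12 CPM with Oct4, 10.5 CPM with Jdp2 and 48.6 CPM with DR. Fbp2 was at 6.28 CPM with c-JunDN, 2.50 CPM with Oct4, 14.5 CPM with Jdp2 and 38.7 CPM with DR. Igfbp6 was at 10.4 CPM with c-JunDN, 7.24 CPM with Oct4, 16.9 CPM with Jdp2 and 48.6 CPM with DR. DR was thus the highest KSM library in these genes, whereas Anxa1 was at 403 CPM with Oct4, above DR.

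The higher genes included matrix and fibroblast genes at low to middle levels. Of 36 matrix glycoproteins and proteoglycans 32 were measured, 5 were higher, none was lower and 27 were neither, with a median of 0.49. The shares over all measured genes were 1.81% higher and 1.62% lower. Fbln5, a fibulin of elastic fibres, was at 22.0 CPM with c-JunDN and 5.52 CPM with DR, 3.98-fold higher (2.26 to 7.49). Elastin itself, Eln, was at 6.28 CPM with c-JunDN and 1.1 CPM with DR, 5.69-fold higher (1.69 to 29.9) on 20 and 3 counts. Eln reached 5 CPM with c-JunDN alone and so had to be higher. Lox, the enzyme that cross-links elastin and collagen, was at 63.5 CPM with c-JunDN and 24.3 CPM with DR, 2.61-fold higher (1.97 to 3.50). These 3 genes serve the same fibre, and with Jdp2 Fbln5 was at 17.2 CPM, Eln at 6.41 CPM and Lox at 40.8 CPM. The small proteoglycan genes Dcn (30.5 CPM with c-JunDN, 12.5 CPM with DR) and Lum (18.2 CPM with c-JunDN, 6.99 CPM with DR) and the laminin chain Lama1 (33.9 CPM with c-JunDN, 16.2 CPM with DR) were the other higher members of this group. More abundant members were above DR by under 2-fold, as for Fn1, fibronectin, at 1143 CPM with c-JunDN and 633 CPM with DR, Tnc at 371 CPM with c-JunDN and 219 CPM with DR, and Bgn at 233 CPM with c-JunDN and 120 CPM with DR.

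Of 23 collagens 19 were measured, 1 was higher, 1 was lower and 17 were neither, with a median of 0.28. The cartilage collagen Col2a1 was at 128 CPM with c-JunDN, 3.34 CPM with Oct4, 151 CPM with Jdp2 and 40.1 CPM with DR, 3.19-fold higher against DR (2.58 to 3.98). Of 13 cartilage and bone markers, Col2a1 included, 4 were measured, 1 was higher and 3 were neither, with a median of 0.83. They summed to 547 CPM with c-JunDN and 290 CPM with DR. The bone matrix gene Spp1 was at 369 CPM with c-JunDN and 219 CPM with DR, and Alpl at 27.7 CPM with c-JunDN and 14.4 CPM with DR. The cartilage regulator Sox9 was at 3.46 CPM with c-JunDN and 2.21 CPM with DR, and the cartilage gene Acan and the bone regulator Sp7 had 0 counts in both libraries. The part of such cells in the Col2a1 difference was not tested. The fibrillar collagens stood on both sides, with Col1a1 at 610 CPM with c-JunDN and 392 CPM with DR, and Col3a1 at 308 CPM with c-JunDN and 373 CPM with DR. Col4a6, a basement membrane chain, was the lower one, at 4.71 CPM with c-JunDN and 11.4 CPM with DR. Only DR reached 5 CPM for Col4a6, so it had to be lower.

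Of 37 mesenchymal genes 35 were measured, with a median of 0.21. Against 1.81% higher and 1.62% lower over all measured genes, 4 were higher, none was lower and 31 were neither. The 4 were Lox, Lum, Dcn and Thy1, a fibroblast surface marker at 49.3 CPM with c-JunDN, 6.96 CPM with Oct4, 40.5 CPM with Jdp2 and 23.9 CPM with DR, 2.06-fold higher (1.53 to 2.80). The transcription factors that drive mesenchymal identity showed no such difference, with Snai1 at -0.17, Snai2 at -0.19, Twist1 at 0.18, Zeb1 at 0.21 and Zeb2 at 0.00. Vim, vimentin, was at 2423 CPM with c-JunDN and 3040 CPM with DR. Of 13 measured contractile genes Acta2, smooth muscle actin, was higher, at 22.0 CPM with c-JunDN and 9.57 CPM with DR, 2.30-fold (1.45 to 3.76), and 12 were neither.

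**Figure D3:**
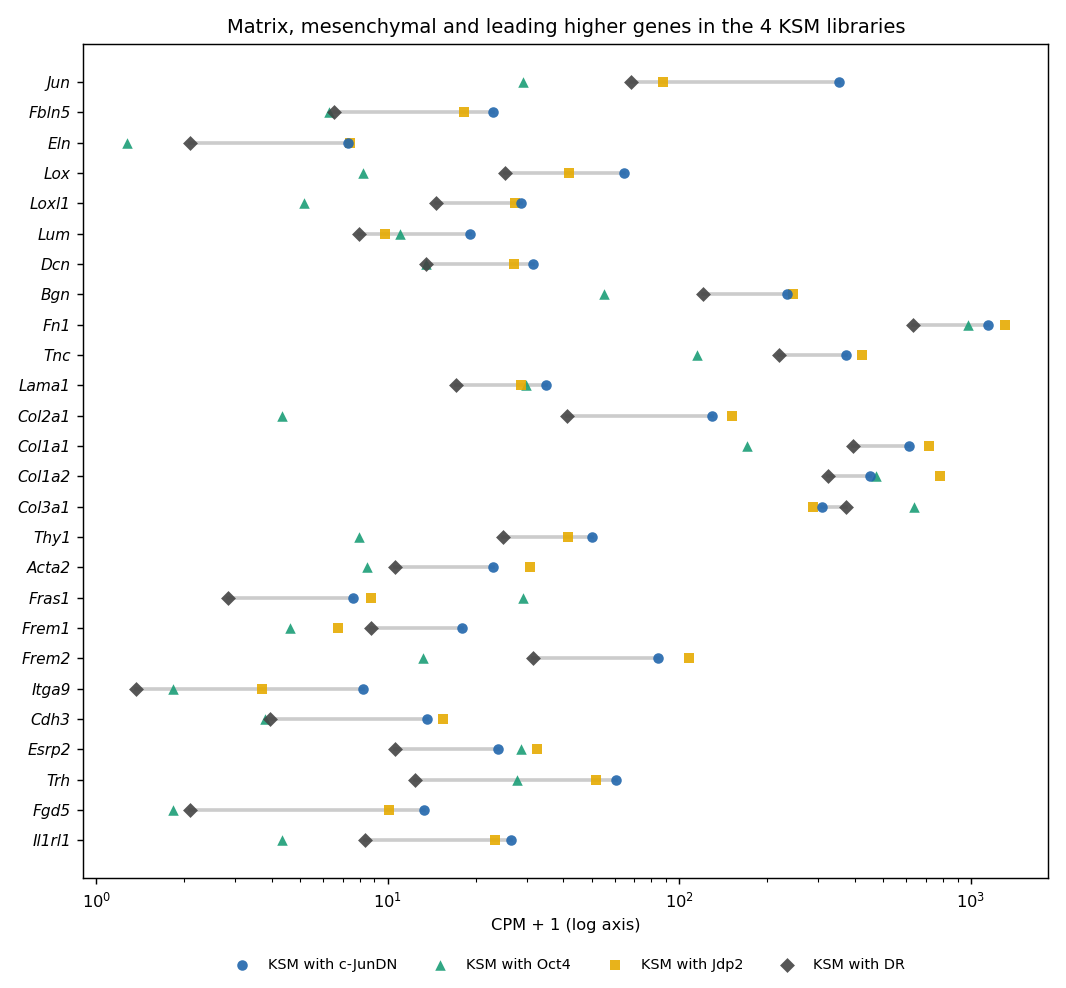
Levels of Jun, of matrix and mesenchymal genes and of other leading higher genes in the 4 KSM libraries, as CPM plus 1 on a log axis, with the same symbols for c-JunDN, Oct4, Jdp2 and DR. The c-JunDN circle lies right of the DR diamond for each gene shown but Col3a1, the Jdp2 square lies near c-JunDN for many, as for Col2a1 at 151 CPM, and the Oct4 triangle lies at or left of DR for most, as for Lox at 7.24 CPM.

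Genes of the Fraser complex were also among the higher ones. Fras1, Frem1 and Frem2 encode large matrix proteins that tie epithelium to the underlying tissue, and 3 of the 5 genes of this complex were measured. All 3 were higher, against 1.81% of all measured genes, but Fras1 reached 5 CPM with c-JunDN alone and so had to be. Frem2 was at 83.6 CPM with c-JunDN, 12.2 CPM with Oct4, 107 CPM with Jdp2 and 30.6 CPM with DR, 2.74-fold higher (2.13 to 3.54). Frem1 was at 17.0 CPM with c-JunDN and 7.73 CPM with DR, and Fras1 at 6.60 CPM with c-JunDN and 1.84 CPM with DR. Of 20 measured integrins and adhesion receptors, Itga9 (7.23 CPM with c-JunDN, 0.368 CPM with DR) and Itga1 (10.1 CPM with c-JunDN, 2.21 CPM with DR) were higher, Itgb4 was lower and 17 were neither, with a median of -0.03. Itga9 and Itga1 also reached 5 CPM with c-JunDN alone. The Itga9 value rests on 23 counts with c-JunDN and 1 with DR, a ratio of 19.6 (3.19 to 809).

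The highest genes by the interval bound nearest to no change, beside Jun, were of varied function. Trh, the precursor of thyrotropin-releasing hormone, was at 59.7 CPM with c-JunDN, 26.7 CPM with Oct4, 50.6 CPM with Jdp2 and 11.4 CPM with DR, 5.23-fold higher (3.57 to 7.92). Fgd5, an exchange factor for Cdc42, was at 12.3 CPM with c-JunDN and 1.1 CPM with DR on 39 and 3 counts, a ratio of 11.1 (3.53 to 56.1). Igfbp2, a binder of insulin-like growth factors, was at 83.0 CPM with c-JunDN, 6.40 CPM with Oct4, 138 CPM with Jdp2 and 29.1 CPM with DR, 2.85-fold higher (2.21 to 3.72). Oct4 and Jdp2 lay on different sides of DR for Igfbp2. Prom1, which encodes the surface protein prominin-1, was at 96.8 CPM with c-JunDN and 34.6 CPM with DR, 2.80-fold higher (2.21 to 3.56). The actin binder Cotl1 was at 59.7 CPM with c-JunDN and 16.9 CPM with DR, 3.53-fold higher (2.54 to 4.98). Prom1 was at 90.8 CPM with Jdp2 and 9.74 CPM with Oct4, and Cotl1 at 47.6 CPM with Jdp2 and 3.06 CPM with Oct4. Entpd2, an ectonucleotidase gene, was higher by 3.63-fold, Palmd by 6.49-fold and Plekha6 by 3.89-fold. Vash1, a gene of vessel and tubulin biology, had 27 counts with c-JunDN and 2 with DR, a ratio of 11.5 (2.90 to 100). Jdp2 was above DR in these genes as well, with Entpd2 at 44.6 CPM, Palmd at 12.2 CPM, Plekha6 at 24.0 CPM and Vash1 at 6.41 CPM. Fgd5 was at 9.11 CPM with Jdp2. Fgd5, Palmd and Vash1 reached 5 CPM with c-JunDN alone, so their direction was fixed by the minimum. Zfp600 had 16 counts with c-JunDN and 0 with DR, at least 4.55-fold higher, but zinc finger genes of this type have close copies. Zfp600 too reached 5 CPM with c-JunDN alone and so had to be higher, and it was at 0 CPM with Jdp2.

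Several of the lowest genes are uncertain for a like reason. Amd1, Rnaset2b, Hist1h2bk, Tgoln2, Mndal and Ifi203 have close copies or overlap other genes, and the counting could split their reads. Amd1 was at 1.57 CPM with c-JunDN, 175 CPM with Oct4, 17.2 CPM with Jdp2 and 25.4 CPM with DR. Rnaset2b had 0 counts with c-JunDN and was at least 7.42-fold lower, and Hist1h2bk and Tgoln2, also at 0, were each at least 6.64-fold lower. Amd1, Rnaset2b, Hist1h2bk and Tgoln2 reached 5 CPM with DR alone and so had to be lower. Of 4 measured genes of the interferon-inducible p200 family, Mndal (-3.05), Ifi203 (-2.58) and Ifi202b (-1.15) were lower and Aim2 (1.59) was higher. None of the 4 reached 5 CPM in both libraries, so each direction was fixed by the minimum. Of 31 interferon response genes 8 were measured, and Ddx58, which encodes the RNA sensor RIG-I, was higher at 16.7 CPM with c-JunDN and 6.99 CPM with DR.

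Among signalling genes, 14 members of the Wnt list were measured, with a median of 0.53. Against 1.81% higher and 1.62% lower over all measured genes, 2 were higher and none was lower. Both higher genes reached 5 CPM with c-JunDN alone. Wnt5b, a ligand, was at 6.28 CPM with c-JunDN and 1.47 CPM with DR, and Nkd2, a Wnt antagonist, at 14.1 CPM with c-JunDN and 4.79 CPM with DR. The Wnt target Axin2 was at 71.0 CPM with c-JunDN and 46.0 CPM with DR, under 2-fold. In the BMP list Bmp7 was higher (10.7 CPM with c-JunDN, 2.94 CPM with DR), Bmp6 was lower (3.77 CPM with c-JunDN, 9.20 CPM with DR) and the target Id1 was at 26.1 CPM with c-JunDN and 43.4 CPM with DR. Bmp7 reached 5 CPM with c-JunDN alone and Bmp6 with DR alone, so both directions were fixed by the minimum. None of 19 measured genes of the TGF-beta list passed 2-fold, and Inhbb, an activin subunit, came nearest at 38.0 CPM with c-JunDN and 18.8 CPM with DR.

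Introduced factors aside, pluripotency genes were largely silent in both libraries. Of 38 in the list 8 were measured and none passed 2-fold. The list sum, 1732 CPM with c-JunDN and 1861 CPM with DR, is mostly the introduced Klf4 and Sox2, given to both libraries. Alpl was at 27.7 CPM with c-JunDN and 14.4 CPM with DR, and Cd9 at 242 CPM with c-JunDN and 396 CPM with DR. Nanog had 0.628 CPM with c-JunDN and 1.47 CPM with DR, near the floor of 3 counts. Esrrb had 0 CPM with c-JunDN and 0.736 CPM with DR, and Zfp42 had 0.314 CPM with c-JunDN and 0.736 CPM with DR, both too few counts for a fold. L1td1 was at 0.943 CPM with c-JunDN, 87.9 CPM with Oct4, 0.338 CPM with Jdp2 and 0.368 CPM with DR. Sall4 had 0 counts with c-JunDN and with DR, and 8.91 CPM with Oct4. These are levels, and no difference between factors is read from them.

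No gene of the cell cycle list passed 2-fold, with all 30 measured and a median of 0.18, from Ccnb2 at -0.29 to Cdc6 at 0.56. None passed it among 19 genes of cholesterol synthesis (median 0.02), 12 of fatty acid synthesis (0.06), 24 of chromatin and DNA methylation (0.16), 23 of p53 targets and CDK inhibitors (-0.10), 19 HOX genes (-0.04), 19 of the ATF4 response (-0.01) and 10 KLF factors (-0.20). Lists of this size would hold few or no such genes at the shares over all measured genes, 1.81% higher and 1.62% lower. Single genes passed 2-fold in lists that otherwise stayed near 0. Bnip3, a mitophagy receptor gene, was the lower one of 18 measured genes of glycolysis and hypoxia, at 4.71 CPM with c-JunDN and 13.3 CPM with DR. Only DR reached 5 CPM for Bnip3, so it had to be lower. The heat shock gene Hspa1b was at 10.1 CPM with c-JunDN and 29.4 CPM with DR, but its near-identical copy Hspa1a was at 9.43 CPM with c-JunDN and 6.26 CPM with DR, so reads may be shared between them.

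**Figure D4:**
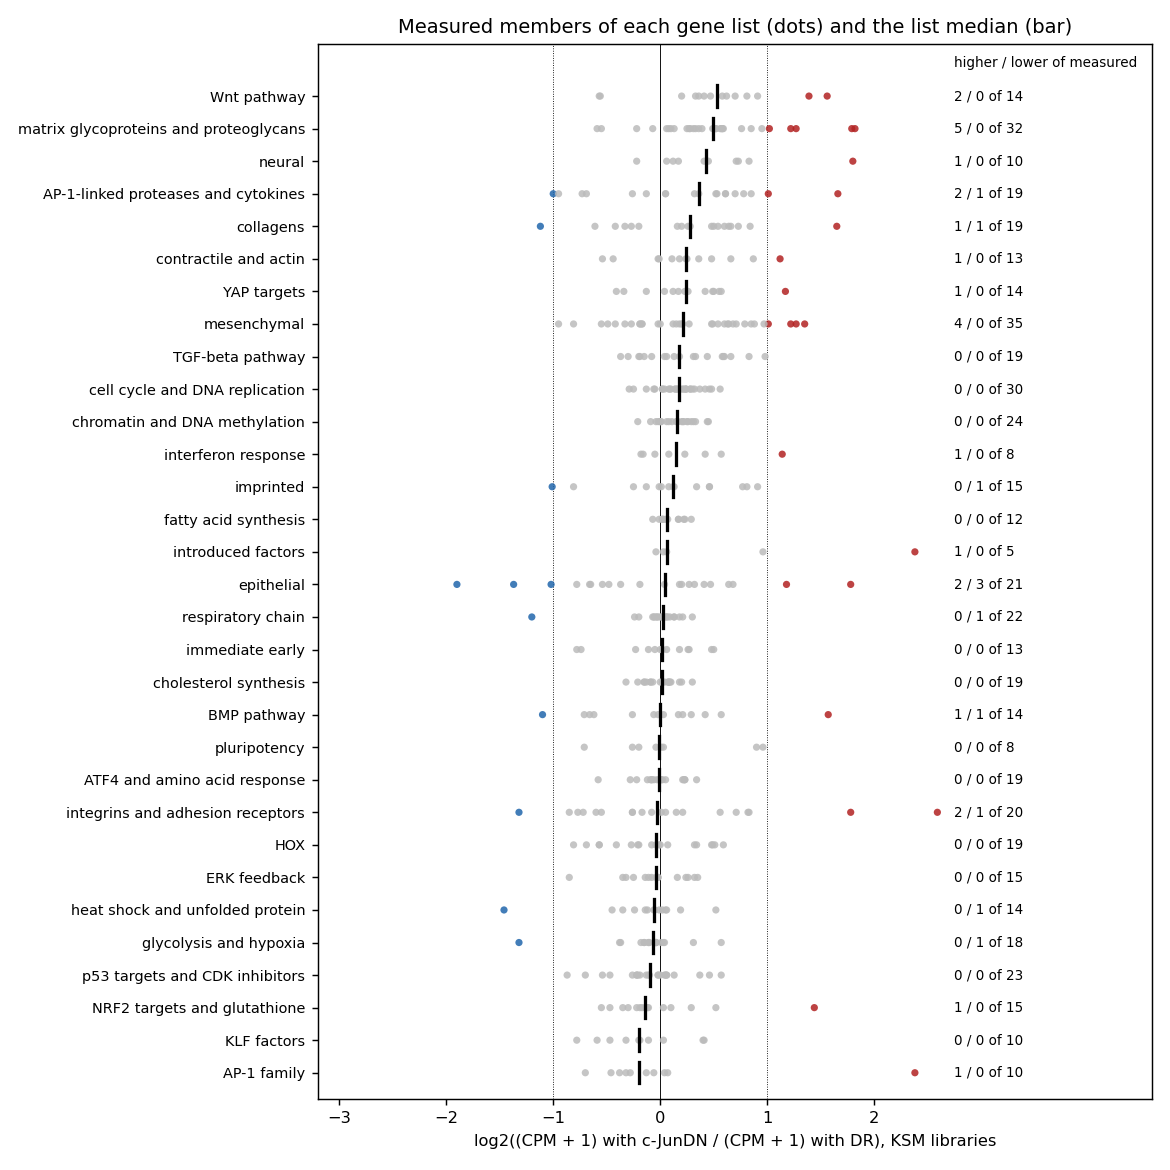
Log2 differences between KSM with c-JunDN and KSM with DR for the measured members of each gene list with 5 or more of them; red dots are higher and blue dots lower by 2-fold or more, black bars are medians, and the counts stand at the right. The Wnt and matrix lists have the highest medians (0.53 and 0.49, or 0.42 and 0.45 with DESeq2 size factors), the AP-1 and KLF lists the lowest (-0.20 each), and most dots lie within 2-fold.

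Genes that separate the cell types at either end of reprogramming were taken from the untreated libraries, as genes differing 8-fold or more between MEF and ESC at 20 CPM or more. Of 791 genes higher in MEF 663 were measured, with a median of 0.13. With c-JunDN 30 of these were higher (4.52%), 21 were lower (3.17%) and 612 were neither. Of 544 genes higher in ESC 293 were measured, with a median of 0.20. With c-JunDN 15 of these were higher (5.12%), 11 were lower (3.75%) and 267 were neither. Over all measured genes 1.81% were higher and 1.62% lower, so both sets held larger shares on each side. The medians of both sets leaned slightly to the higher side, as the median over all genes did at 0.05.

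Most markers of cell types that could be mixed into MEF cultures were under the minimum. Of 18 macrophage markers Cd68 alone was measured, at 6.60 CPM with c-JunDN and 15.1 CPM with DR, while Csf1r, C1qa, C1qb and Emr1 had 0 counts in both. Of 12 endothelial markers 3 were measured and none passed 2-fold, with Eng at 67.9 CPM with c-JunDN and 53.4 CPM with DR. Of 15 skeletal muscle markers Chrna1 alone was measured, at 33.3 CPM with c-JunDN and 30.9 CPM with DR, and Myod1 and Myog had 0 counts in both. Pparg, the adipocyte regulator, was at 6.28 CPM with c-JunDN and 17.3 CPM with DR, with Adipoq at 0 counts in both and Lpl at 25.8 CPM with c-JunDN and 36.4 CPM with DR. Of 8 erythroid markers, which summed to 43.0 CPM with c-JunDN and 40.9 CPM with DR, 2 were measured. The globin gene Hbb-y was at 40.5 CPM with c-JunDN and 33.5 CPM with DR. The globin gene Hba-a1 had 2 counts with c-JunDN and 19 with DR, a ratio of 11.1 lower (2.69 to 98.5). It reached 5 CPM with DR alone and so had to be lower.

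The same factor was also given to MEF without KSM, and that pair shares no library with the KSM pair. In MEF 358 genes were higher with c-JunDN (3.25% of those measured) and 299 were lower (2.71%). Of 10008 genes measured in both settings 22 were higher in both, which is 16.2% of the 136 higher in KSM and 11.2% of the 197 higher in MEF. The lower side shared 19 genes, 18.6% of the 102 lower in KSM and 9.22% of the 206 lower in MEF. In opposite directions, 10 genes were higher in KSM and lower in MEF, and 8 were lower in KSM and higher in MEF. Over all genes measured in both 1.97% were higher and 2.06% lower in MEF. Across genes, which are not replicates, the differences in the 2 settings had a Pearson r of 0.09 and a Spearman rho of 0.05 over 10008 genes.

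Genes lower in both settings included surface and secreted proteins. Lgals3 was at 56.2 CPM with c-JunDN and 251 CPM with DR in KSM, and at 15.6 CPM with c-JunDN and 71.6 CPM with DR in MEF. Igfbp6 was at 10.4 CPM with c-JunDN and 48.6 CPM with DR in KSM, and at 9.85 CPM with c-JunDN and 49.3 CPM with DR in MEF. Ly6a differed more in MEF, where it was at 29.1 CPM with c-JunDN and 484 CPM with DR. Ly6c1, Adh7, Plaur, Krt19, Sbsn, Bnip3, Ecm1, Ifi203, Ifi202b, Ugt1a6a, Ugt1a6b and Eps8, a regulator of actin and receptor signalling, were also on that side. Adh7, Krt19, Sbsn, Ugt1a6a and Ugt1a6b in MEF, and Ly6c1, Bnip3, Ifi203 and Ifi202b in KSM, reached 5 CPM with DR alone. Their direction in that setting was fixed by the minimum. In MEF the counting intervals of Sbsn and Ugt1a6a included no change. Genes higher in both included Jun, Igfbp2, Col2a1, Frem2, Wnt5b, Nkd2, Itga1 and Esrp2. Of these, Wnt5b, Nkd2 and Itga1 in KSM, and Wnt5b, Frem2 and Esrp2 in MEF, reached 5 CPM with c-JunDN alone. Their direction there was likewise fixed, as was that of Eln in KSM. Eln was at 855 CPM with c-JunDN and 54.6 CPM with DR in MEF, a log2 difference of 3.94 beside 1.79 in KSM.

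**Figure D5:**
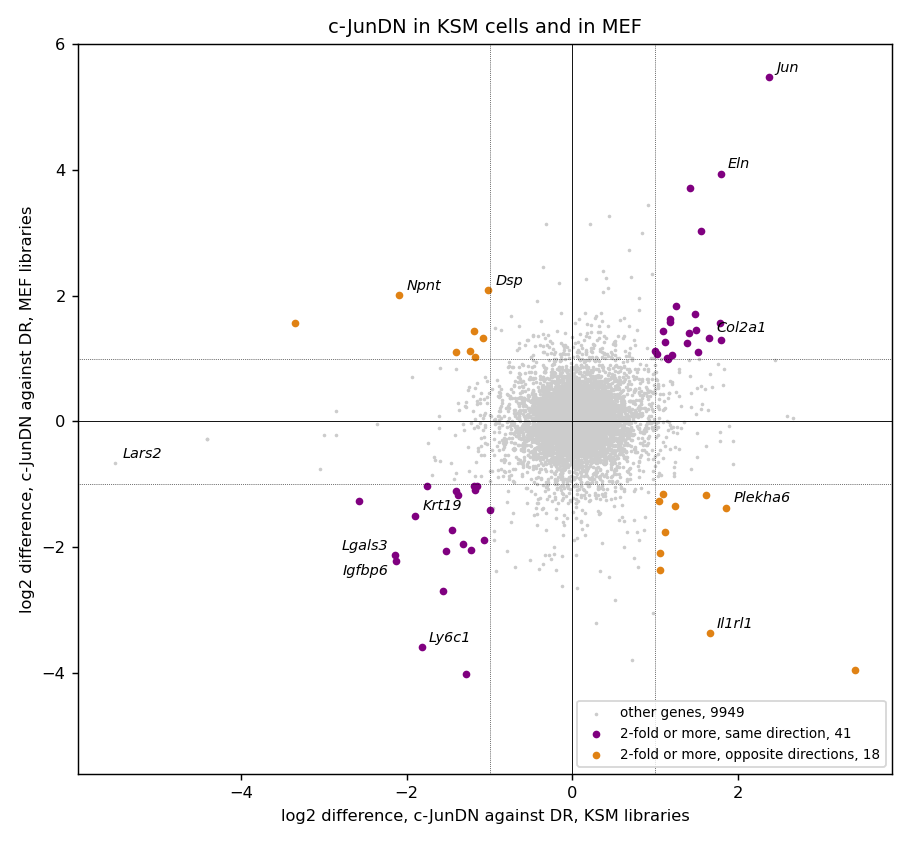
Log2 differences between c-JunDN and DR in KSM libraries (x axis) and in MEF libraries without KSM (y axis) for 10008 genes measured in both; dotted lines mark 2-fold, purple dots pass it in the same direction and orange dots in opposite directions. Jun lies far up at the right (2.38 in KSM, 5.47 in MEF), Lgals3 and Igfbp6 lie low on both axes, and Il1rl1 is high in KSM (1.66) and low in MEF (-3.37).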

How the data were processed

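Per the labels' protocols, RNA was isolated using Trizol, and sequencing libraries come from a TruSeq kit. The authors quantified genes with RSEM 1.1.21 on mm9, per the submitters' processing notes; the aligner and the use of strand in counting are not given in the sources used here. The deposited tables of 12 libraries give expected counts per gene, which were rounded here, beside each gene's fraction of all transcripts, a value the authors deposited, which served as TPM in an alternative. The MEF Oct4 library, the peak lists and the input are not used here.

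Counts were scaled with TMM factors over the 12 libraries (edgeR 4.0.16, R 4.3.3); KSM factors were 1.0691 (c-JunDN) and 1.0625 (DR). The log2 difference uses CPM with 1 added as pseudocount, for genes of at least 5 CPM in 1 of the 2 libraries. Fold intervals are exact conditional binomial intervals at 95%. A gene at 0 counts is given against a floor of 3 counts. With 1 library per group, no test was made. The interval and calls were tested on simulated data. Alternatives were total counts, DESeq2 1.42.0 size factors, TMM from the 2 libraries, TPM, other pseudocounts, filters and thresholds.

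The 41 lists and the members were chosen with earlier results of these data known; gene families were grouped by name after values had been seen. Of 797 listed names, 5 were found through a synonym and 5 were absent. Named genes follow a rule: the introduced factors, each measured AP-1 member, the 3 measured members of each other list with the largest difference, and the 15 highest and 15 lowest genes by the interval bound nearest to no change, without unnamed gene models. Family members and other genes named beside these were chosen after their values were seen, and the text leaves out part of the genes that fall under the rule.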

Additional observations from a re-analysis of the deposited data

Results flagged for a closer look

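For 5 of the genes named above or in the lists, c-JunDN and DR differed by 2-fold or more in opposite directions in KSM and in MEF without KSM, with counting intervals that exclude no change in each setting. There is 1 library a side, so the difference between the settings was not tested. Il1rl1, the interleukin-33 receptor gene, had a log2 difference of 1.66 in KSM and -3.37 in MEF, where it was at 12.3 CPM with c-JunDN and 137 CPM with DR. Plekha6 had 1.86 in KSM and -1.37 in MEF, at 1.64 CPM with c-JunDN and 5.80 CPM with DR in MEF. Npnt had -2.09 in KSM and 2.01 in MEF, at 55.8 CPM with c-JunDN and 13.1 CPM with DR in MEF. The desmosome gene Dsp had -1.02 in KSM and 2.09 in MEF, at 7.38 CPM with c-JunDN and 0.967 CPM with DR in MEF. The macrophage marker Cd68 had -1.08 in KSM and 1.32 in MEF, at 13.5 CPM with c-JunDN and 4.84 CPM with DR in MEF. In MEF, Plekha6, Dsp and Cd68 reached 5 CPM in only 1 of the libraries, so their direction there was fixed by the minimum.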

How the results depend on the processing

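Of 83 genes past 2-fold among 162 recomputed, none changed direction under the alternatives run. The scalings moved the median over all measured genes only between -0.01 and 0.09. Pseudocounts and filters cannot turn a direction, so this outcome was close to fixed in advance and is no check of the directions. A pseudocount of 5 brought 23 of them under 2-fold, among them Eln (0.89), Acta2 (0.89), Lum (0.95), Krt80 (-0.63) and Fras1 (0.76), TPM brought 2 under it (Plaur and Dsp), and DESeq2 size factors and TMM from the 2 libraries brought 1 each (Mmp10). The count of 194 higher and 174 lower genes was 46 and 95 with a pseudocount of 5, 42 and 84 with a minimum of 20 CPM, 459 and 303 with no filter and 701 and 500 at 1.5-fold. Scaling alone turned the balance of the sides, with 147 higher and 186 lower with DESeq2 size factors, 159 and 199 with TMM from the 2 libraries and 161 and 171 with TPM. The 10 lower keratins were 6 with a minimum of 20 CPM. Genes higher in both KSM and MEF, 22 above, were 13 with TPM, 5 with a pseudocount of 5, 55 with no filter and 6 with a minimum of 20 CPM; genes lower in both, 19 above, were 9 with a pseudocount of 5, 33 with no filter and 7 with a minimum of 20 CPM. Other filters change how many genes can be called; other causes were not tested. Leaving Lars2 and Mtrnr2l out of total counts, chosen after seeing the data, gave 198 higher and 181 lower. Of 36 list medians, 4 moved by over 0.25. With 1 library per group no replicate could be left out. No paired analysis was possible because each group has 1 library. Depth limits low genes: 3 counts are near 1 CPM.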

Other observations

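Among further gene families, 20 semaphorin genes, which encode guidance and adhesion signals, were grouped after values had been seen. Of these, 12 were measured, 3 were higher with c-JunDN and none was lower, with a median of 0.53. The shares over all measured genes were 1.81% higher and 1.62% lower. Sema3a was at 17.9 CPM with c-JunDN and 8.10 CPM with DR, Sema4f at 26.4 CPM with c-JunDN and 12.5 CPM with DR, and Sema6a at 19.5 CPM with c-JunDN and 8.83 CPM with DR. Genes of neuronal type stood on both sides, with the neurofilament gene Nefl (-1.84) and the synuclein gene Sncg (-1.74) lower, and the receptor gene Ngfr (1.21) higher. The growth factor gene Pdgfb (2.02) and Stra6 (1.22), which encodes a receptor for retinol-binding protein, were higher. The natriuretic peptide gene Nppb (-2.30) and the detoxifying Ugt1a6a (-1.38) and Ugt1a6b (-1.56), which share most of their sequence, were lower. These genes were picked after their values were seen.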
